A study of Mus musculus with 8 samples.

Results

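The genes described here encode the subunits of the 5 oxidative phosphorylation complexes and the proteins that assemble them. They were taken by symbol: every gene whose symbol starts with Nduf, Uqcr, Atp5, or Cox followed by a digit, together with Sdha, Sdhb, Sdhc and Sdhd. Of 24339 gene symbols in the table, 101 matched, and 93 of these had a mean of at least 1 FPKM over the 8 libraries. FPKM counts fragments per transcript length and per library size, so it is a level per length. The 93 genes hold 74 structural subunits, 18 assembly factors and 1 tissue-specific subunit form, Cox7a1.

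RNA came from cultured peritoneal macrophages of α7nAChR-/- mice (KO), which lack the α7 nicotinic acetylcholine receptor, and of wild type mice (WT), all of the strain C57BL/6. In each genotype 1 library was made after nicotine and LPS, 1 after LPS, 1 after nicotine and 1 after vehicle. Nicotine, the receptor's plant agonist, was used at 10 µM, starting 15 min before LPS. LPS, the bacterial lipopolysaccharide that activates macrophages, was used at 100 ng/ml for 4 h, and each agent had its vehicle in the libraries without it. The labels give no age or number of mice, and do not say whether the libraries of 1 genotype came from 1 cell preparation, so that genotype and preparation cannot be told apart. With 1 library per group, a p-value reflects only how far these 8 libraries spread, which may be technical. In a model of average effects that spread also holds any dependence of the LPS difference on nicotine, so a difference can go uncalled.

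The summed FPKM of 10 macrophage markers was 20500 to 34900 per library. Of these markers Lyz2 alone held 32448 of the 34900 FPKM in WT vehicle and 23697 of the 26500 in WT nicotine. The sum there mostly followed this 1 gene, so a change in it need not be a change in macrophage content. The sums were 158 to 751 for mast cell, 161 to 352 for B cell and 13.1 to 48.1 for T and NK cell markers, and at most 16.6 for mesothelial and fibroblast and 11.6 for neutrophil markers. Chrna7, the gene of the receptor, was listed at 0 FPKM in all 8 libraries, so it does not check the genotype labels. FPKM summed to 627160 to 854016 in the 4 libraries with LPS and to 413052 to 529093 in the 4 without. The glycolytic enzyme Gapdh, abundant in nearly any cell, stood at 1.34 to 8.90 FPKM, so a low value here can be a failed estimate. Mitochondrially encoded subunits were not analysed here, and the genes below are nuclear.

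The respiratory chain passes electrons from NADH (complex I) and from succinate (complex II) through complex III and cytochrome c to complex IV, which reduces oxygen. Complexes I, III and IV pump protons across the inner mitochondrial membrane, and complex V, the ATP synthase, uses the returning protons to make ATP. Complex II is also the succinate dehydrogenase of the citric acid cycle. In macrophages, LPS is known to shift energy metabolism from oxidative phosphorylation toward glycolysis, and succinate oxidation at complex II is known to shape the inflammatory response.

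Transcript levels followed the complexes. The median of the mean FPKM was 186 for the 11 complex IV subunits, 150 for the 15 of complex V, 125 for the 8 of complex III, 58.3 for the 4 of complex II and 42.2 for the 36 of complex I, against 11.3 for all 10447 genes tested. Within complex I the 7 core subunits, which between them carry the flavin and the iron-sulfur clusters, had a median of 22.7 FPKM, and the 29 accessory subunits 48.9 FPKM. The most abundant member was Atp5b, the catalytic beta subunit of ATP synthase, with a mean of 405 FPKM, ahead of the complex IV subunit Cox4i1 with 342 and the complex III hinge protein Uqcrh with 309. The highest in complex I was Ndufa3 with 189 FPKM, and in complex II the membrane anchor Sdhd with 83.7. Assembly factors were far lower, with medians of 3.62 FPKM for the 8 of complex I and 14.1 for the 10 of complex IV. Cox17, the copper chaperone of complex IV, and Cox7a2l, which joins complexes III and IV, stood apart from the other assembly factors with means above 100 FPKM.

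**Figure D1:**
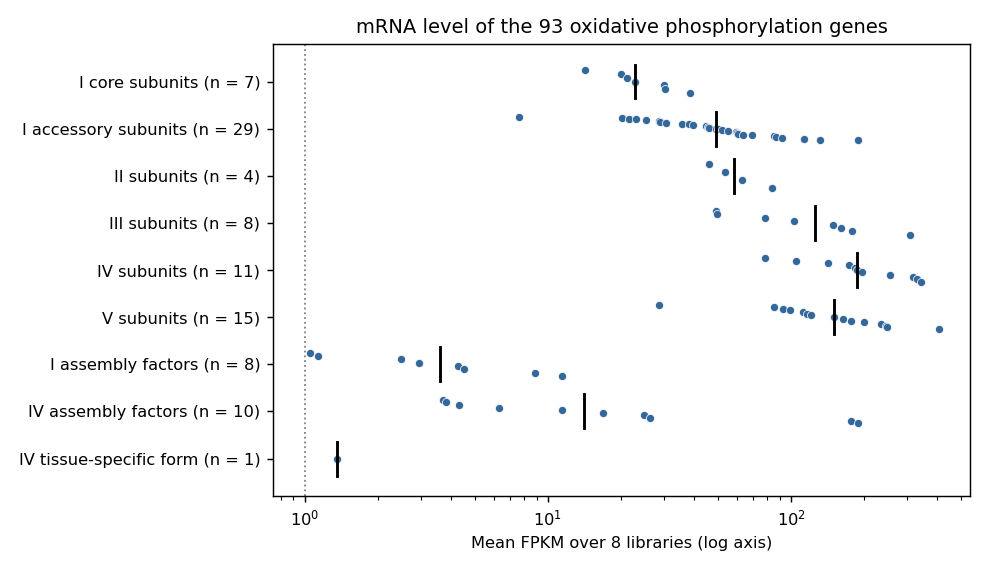
Mean FPKM over the 8 libraries (log axis) of each of the 93 genes, 1 point per gene, by complex and class. Black bars are medians and the dotted line is the minimum of 1 FPKM. Subunits of complexes III, IV and V lie highest, those of complex I lower, and most assembly factors lowest.

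The minimum of 1 FPKM left out 8 genes. Of these, Cox4i2, Cox7b2, Cox8b and Cox8c were listed at 0 in all 8 libraries, and Ndufa4l2, Cox6a2 and Cox6b2, likewise tissue-specific or condition-specific forms of complex IV subunits, reached at most 0.127, 1.05 and 0.792 FPKM. Just below the minimum, Atp5s, coupling factor B of ATP synthase, had a mean of 0.818 FPKM. Its values were 2.45 FPKM in the KO and 2.24 in the WT vehicle library, and at most 0.524 in the other 6. Just above it were the complex I assembly factors Ndufaf5 and Ndufaf6 with means of 1.05 and 1.14 FPKM and Cox7a1, the muscle form of Cox7a2, with 1.36. Cox7a1 passed no test, with a nicotine difference of -0.48 (limma adjusted p = 0.259).

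Members varied over a narrow range between libraries. The gap between the highest and the lowest library had a median of 0.89 (log2 of FPKM + 1), a 1.85-fold range, against a 2.83-fold range for all genes tested. It was smallest for the assembly factor Cox16, at 0.23, with 15.1 to 17.9 FPKM in all libraries, and largest for the complex I assembly factor Ndufaf7, at 2.31.

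Nicotine lowered 15 of 36 complex I and 3 of 4 complex II subunit transcripts, and no subunit of complexes IV or V passed the test. Differences were tested with limma on log2(FPKM + 1), in which the 4 nicotine libraries were set against the 4 without nicotine, with LPS and genotype in the model and Benjamini-Hochberg adjustment over all 10447 genes. Of 93 members, 22 fell and 4 rose at an adjusted p under 0.05. Over all genes tested 22.2% fell and 24.1% rose, so the share of members that fell, 23.7%, was near that of all genes, while the share that rose, 4.3%, was below it. The members' median difference was -0.20 (log2), against -0.03 for all genes. Other genes in the members' middle range of transcript length also had a negative median, -0.131. Those in the members' middle range of mean FPKM had a median of 0.2, and the 514 in both ranges 0.035. FPKM was lower with nicotine in 4 of 4 matched pairs of libraries for 44 members, 47.3%, against 28% of all genes, and higher in 4 of 4 for 10, 10.8%, against 29.5%. The groups did not overlap for 16 that were lower and 2 that were higher, against 14.4% and 17.7% of all genes.

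By complex, the median difference was -0.39 (log2) for complex I and -0.61 for complex II, and 0 subunits of either rose. In bulk RNA fewer cells of a type and less RNA per cell cannot be told apart. In complex III 2 of 8 fell and 1 rose, with a median of -0.12. For the 11 complex IV and 15 complex V subunits 0 passed the test in either direction, with medians of 0.03 and -0.06. At an unadjusted p under 0.05 limma counted 35 of the 93 members, 37.6%, against 54.6% of all genes. With quantile scaling of the libraries the complex IV median was -0.05, so its direction was not fixed, and those of complexes I, II, III and V kept their sign. This scaling moved the members' median from -0.205 to -0.3, so it could not test medians that were already negative.

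**Figure D2:**
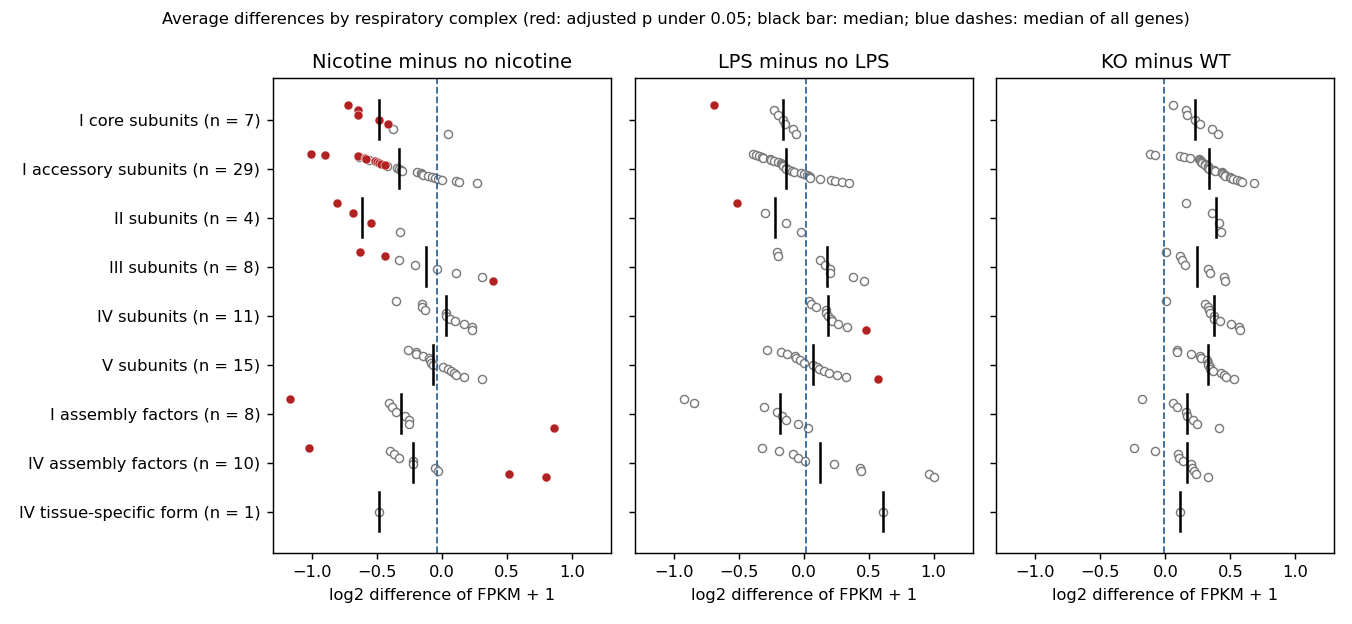
Average log2 difference of FPKM + 1 for each of the 93 genes, 1 point per gene, by complex and class, for nicotine, LPS and genotype in 3 panels. Red points passed an adjusted p of 0.05, black bars are medians and the blue dashed line is the median of all genes tested. The medians of complexes I and II lie left of the line for nicotine, and those of all 5 complexes lie right of it for KO minus WT.

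In complex II 3 of 4 subunits fell, from both the catalytic part and the membrane anchor. Sdhb, the iron-sulfur subunit, had 46.9 FPKM in the KO and 32.2 in the WT nicotine and LPS library, against 69.2 and 55.1 with LPS alone. It had 53.8 FPKM in the KO and 47.2 in the WT nicotine library, against 113 and 85.8 with vehicle. All 4 nicotine libraries lay below all 4 others, and Sdhb fell by 0.80 (log2, SE 0.14, limma adjusted p = 0.00453). Sdhc, a membrane anchor, fell by 0.68 (SE 0.14, limma adjusted p = 0.00884) and Sdha, the flavoprotein that oxidises succinate, by 0.54 (SE 0.12, limma adjusted p = 0.0115), and for both the groups did not overlap either. Sdhd, the other anchor, was lower with nicotine in 4 of 4 pairs, with 76.0 against 85.4 FPKM and 98.6 against 126 in KO and 57.4 against 77.8 and 65.4 against 82.5 in WT, but with overlapping groups, and did not pass the test (-0.32, SE 0.14, limma adjusted p = 0.0991).

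Among the core subunits of complex I, 5 of 7 fell. Ndufv1, which binds NADH and the flavin, had 16.2 and 19.6 FPKM in the KO nicotine libraries with and without LPS, against 28.6 and 31.0 without nicotine. In WT it had 12.2 and 15.1 FPKM with nicotine, against 22.4 and 24.1 without. The groups did not overlap, and Ndufv1 fell by 0.72 (SE 0.12, limma adjusted p = 0.004). Ndufs3 and Ndufs7, 2 subunits of the arm that leads electrons to ubiquinone, each fell by 0.64, and Ndufs1 and Ndufv2 by 0.48 and 0.41. Ndufs8 did not pass (0.05, limma adjusted p = 0.77).

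Among the accessory subunits, which surround the core and stabilise it, 10 of 29 fell. Ndufa9 fell most of all subunits, with 20.1 and 18.6 FPKM in the KO nicotine libraries with and without LPS, against 40.1 and 35.7 without nicotine. In WT it had 15.2 and 12.7 FPKM with nicotine, against 33.9 and 27.3 without. The groups did not overlap (-1.01, SE 0.12, limma adjusted p = 0.0013). Ndufb3 fell by 0.90 (SE 0.14, limma adjusted p = 0.00327), and its groups overlapped, with KO above WT in each treatment. It had 64.0 and 59.8 FPKM in KO with nicotine, against 99.3 and 112.5 without, and 32.3 and 37.0 in WT with nicotine, against 63.6 and 81.9 without. The other 8, Ndufa3, Ndufa5, Ndufa8, Ndufa10, Ndufb4, Ndufb7, Ndufb9 and Ndufc2, fell by 0.44 to 0.64. The highest difference in the class was that of Ndufb11 (0.27, limma adjusted p = 0.32).

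**Figure D3:**
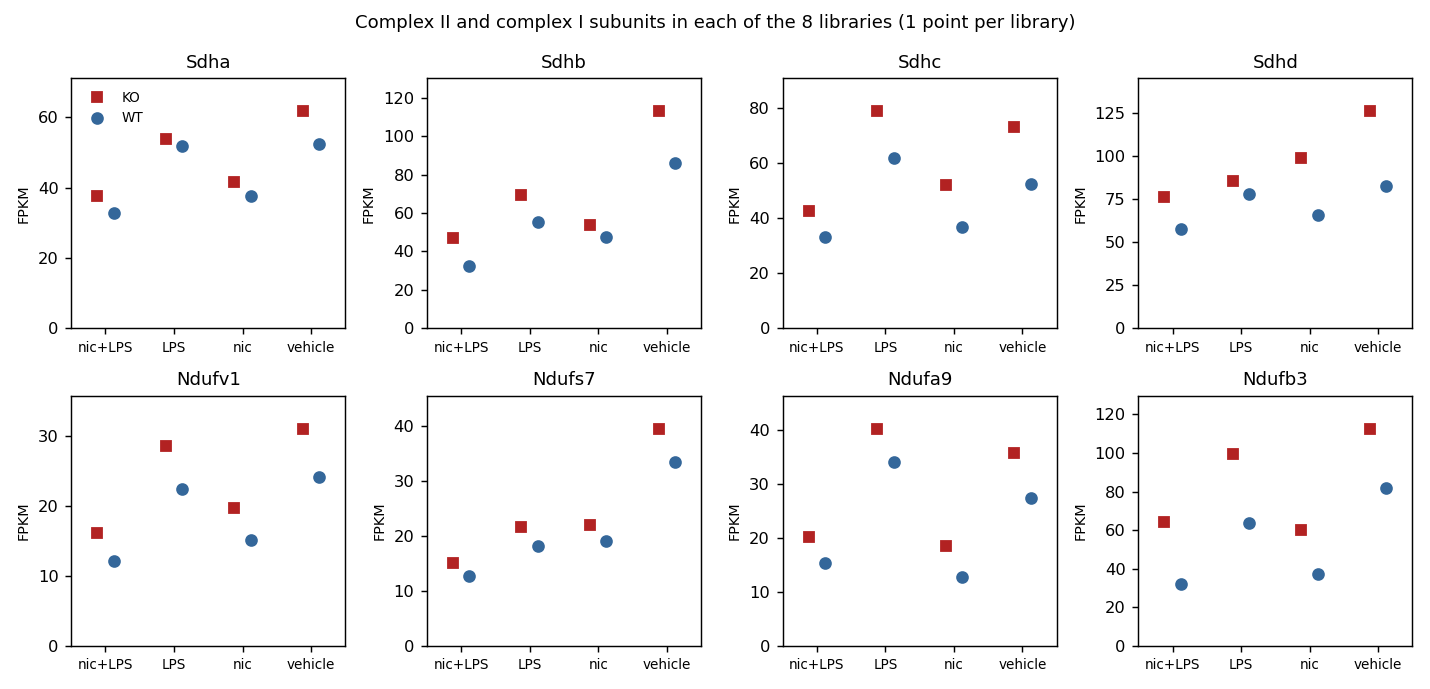
FPKM in each of the 8 libraries for the 4 complex II subunits and for 4 complex I subunits, KO as red squares and WT as blue circles, 1 point per library. Within each genotype the nicotine libraries lie below their matched libraries without nicotine for Sdha, Sdhb, Sdhc, Sdhd, Ndufv1, Ndufs7, Ndufa9 and Ndufb3.

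In complex III the calls went both ways, and 2 lower and 1 higher of the 8 in the symbol rule is near the shares of all genes. The rule leaves out Cyc1, the cytochrome c1 subunit of complex III, which fell by 0.57 (SE 0.18, limma adjusted p = 0.0374). The 2 large core proteins fell: Uqcrc1 by 0.63 (SE 0.15, limma adjusted p = 0.0146) and Uqcrc2 by 0.43 (SE 0.14, limma adjusted p = 0.0439), both with no overlap of the groups. Uqcrh rose, with 378 and 314 FPKM in KO with nicotine, against 278 and 265 without, and with 382 and 333 in WT with nicotine, against 259 and 264 without. All 4 nicotine libraries of Uqcrh lay above the 4 others (0.40, SE 0.12, limma adjusted p = 0.0326). The Rieske iron-sulfur subunit Uqcrfs1, the redox centre on the path to cytochrome c, differed by -0.04 (limma adjusted p = 0.851). Uqcrc2 and Uqcrh lost their call without each of the 8 libraries and also when the 4 matched pairs formed a block, and Uqcrc1 without either nicotine and LPS library.

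The subunits of complexes IV and V differed with nicotine by -0.35 (Cox6a1) to 0.23 (Cox4i1) and by -0.26 (Atp5k) to 0.31 (Atp5b). None of these 26 passed the test, with the smallest adjusted p values at 0.091 for Cox6a1 and 0.145 for Atp5k.

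Assembly factors moved in both directions, with 2 lower and 3 higher of 18, or 11.1% and 16.7%, against 22.2% and 24.1% of all genes. Ndufaf3, which acts early in complex I assembly, had the largest fall of all members: 3.51 and 2.11 FPKM in KO with nicotine, against 7.77 and 8.08 without, and 2.23 and 1.76 in WT with nicotine, against 4.14 and 6.76 without (-1.17, SE 0.20, limma adjusted p = 0.00424). Cox15, the heme A synthase that complex IV needs, fell by 1.02 (SE 0.20, limma adjusted p = 0.00691). Cox19, a protein of the intermembrane space linked to copper delivery, rose by 0.52 (SE 0.14, limma adjusted p = 0.0217) with no overlap of the groups, at 14.1 and 15.8 FPKM in KO and 13.8 and 11.0 in WT with nicotine, against 8.07 to 10.1 without. Atp5sl, a complex I assembly factor now called Dmac2 despite its symbol, and Cox7a2l rose on average by 0.86 and 0.80, and both differences were larger in the LPS libraries than without LPS.

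Of these 26 nicotine calls, 10 stood whichever of the 8 libraries was left out: Sdha, Sdhb, Sdhc, Ndufv1, Ndufs3, Ndufs7, Ndufa9, Ndufb3, Ndufaf3 and Cox15. The count of 22 lower members was 11 without the WT nicotine and LPS library, 14 without the WT nicotine and 14 without the KO nicotine and LPS library, and the 4 higher ones numbered 0 to 3. The share of all genes that fell also dropped, from 22.2% to 16.1%, 17.3% and 16.3% in the same order. The nicotine libraries also had mast cell marker sums of 299 to 751 FPKM, against 158 to 282 without nicotine, with 5 of 6 tested mast cell markers higher and 0 at 0 FPKM throughout, and macrophage marker sums of 20500 to 29600, against 28100 to 34900, with 4 of 10 markers lower and 1 higher. T and NK cell marker sums were 23.4 to 48.1 FPKM, against 13.1 to 25 without nicotine, with 2 of 5 tested markers higher. The part of these in the results was not tested.

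Promoters were read for 79 of the 93 genes, as the 250 bases before the RefSeq start site on GRCm38.p6, to show the letters before genes that fell and genes that did not. NRF1 and GABP are the factors classically tied to nuclear respiratory genes. An NRF1 motif, GCGC, any 2 bases and GCGC again, was found on either strand before 16 of the 79, 20.3%, against 5.64% of all 27025 genes with a promoter. The GABP/ETS motif CCGGAAG was also before 16, 20.3%, against 7.83% of all genes. Of the 18 genes lowered by nicotine that had a promoter in the table, 5 held the NRF1 and 2 the GABP/ETS motif. The AP-1 motif TGANTCA was before 7.59% of members, against 7.82% of all genes, and an NF-kB motif, GGGA, any 2 bases and TTCC, before 1.27%, against 1.36%. The CRE motif TGACGTCA was before 5.06%, against 1.77%, and the YY1 motif AAGATGGCG before 2.53%, against 0.71%. The E-box TCACGTG was before 3.8%, against 3.58%, and the HIF motif ACGTGC, which can share letters with it, before 2.53%, against 5.63%. The ATF4 motif TGATGCAA was before 0 of 79, against 0.918%. Matches describe letters and not bound sites. Shown here are the promoters of Sdha and Sdhb, of Sdhd, which did not pass the test, and of 3 complex I subunits that fell, 5′ to 3′ on the gene's strand and ending at the base before the start, with motif matches in capitals. That of Sdha (chr13:74350241-74350490, minus strand) holds 3 NRF1 matches and that of Sdhd (chr9:50603850-50604099, minus strand) 1 NRF1 match and 1 GABP/ETS match, read on the opposite strand. That of Sdhb (chr4:140961021-140961270, plus strand), which fell most in complex II, holds no match to the 9 motifs searched. That of Ndufb4 (chr16:37654369-37654618, minus strand) holds 3 NRF1 matches, that of Ndufs3 (chr2:90904722-90904971, minus strand) 1 GABP/ETS match near the start, and that of Ndufa9 (chr6:126849145-126849394, minus strand) 1 AP-1 match at its far end.
Sdha: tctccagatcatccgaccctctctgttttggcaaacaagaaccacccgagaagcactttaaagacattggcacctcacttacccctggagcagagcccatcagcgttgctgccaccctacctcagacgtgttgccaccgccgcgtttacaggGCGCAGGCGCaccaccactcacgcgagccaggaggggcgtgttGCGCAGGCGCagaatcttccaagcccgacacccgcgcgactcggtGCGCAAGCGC
Sdhd: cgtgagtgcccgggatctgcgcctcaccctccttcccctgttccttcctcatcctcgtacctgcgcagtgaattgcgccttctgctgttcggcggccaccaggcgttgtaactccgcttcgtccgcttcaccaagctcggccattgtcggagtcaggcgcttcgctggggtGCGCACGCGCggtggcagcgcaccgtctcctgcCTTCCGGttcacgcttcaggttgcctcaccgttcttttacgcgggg
Sdhb: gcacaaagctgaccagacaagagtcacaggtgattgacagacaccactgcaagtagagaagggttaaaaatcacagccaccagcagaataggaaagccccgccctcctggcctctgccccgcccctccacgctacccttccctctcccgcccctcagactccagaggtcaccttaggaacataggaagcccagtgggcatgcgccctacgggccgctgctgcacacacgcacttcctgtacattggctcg
Ndufb4: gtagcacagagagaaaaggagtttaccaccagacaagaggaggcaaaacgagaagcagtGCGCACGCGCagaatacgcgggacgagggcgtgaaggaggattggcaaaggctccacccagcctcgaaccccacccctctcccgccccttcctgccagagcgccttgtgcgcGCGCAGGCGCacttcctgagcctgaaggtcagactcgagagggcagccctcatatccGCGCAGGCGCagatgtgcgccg
Ndufs3: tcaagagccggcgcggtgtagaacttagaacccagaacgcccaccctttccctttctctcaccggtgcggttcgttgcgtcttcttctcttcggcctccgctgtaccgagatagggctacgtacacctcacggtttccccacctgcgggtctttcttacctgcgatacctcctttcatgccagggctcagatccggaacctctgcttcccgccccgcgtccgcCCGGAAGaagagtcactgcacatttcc
Ndufa9: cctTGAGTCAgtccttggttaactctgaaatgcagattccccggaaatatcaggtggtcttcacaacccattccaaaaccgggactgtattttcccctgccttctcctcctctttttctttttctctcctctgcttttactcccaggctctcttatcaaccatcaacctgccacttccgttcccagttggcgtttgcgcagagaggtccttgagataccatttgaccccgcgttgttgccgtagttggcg

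LPS changed few members on average over the 4 matched pairs. Atp5b and Cox7a2, a complex IV subunit, rose, and Ndufs7 and Sdhb fell: 2 higher and 2 lower of 93, or 2.15% each, against 15.8% and 11.3% of all genes tested. The median difference was -0.02 (log2) for members and 0.02 for all genes. At an unadjusted p under 0.05 limma counted 12 members, 12.9%, against 44.9% of all genes. An LPS difference that depends on nicotine adds to the spread in this model, so few calls need not mean small differences. Cox17 had the largest LPS difference of all members, 1.005, and was not called.

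Atp5b had 515 and 512 FPKM in the KO LPS libraries with and without nicotine, against 439 and 324 without LPS. In WT it had 453 and 434 FPKM with LPS, against 350 and 211 without. It was higher in 4 of 4 pairs (0.57, SE 0.16, limma adjusted p = 0.0419). Ndufs7, the subunit that holds the last iron-sulfur cluster before ubiquinone, had 15.1 and 21.7 FPKM in the KO LPS libraries with and without nicotine, against 22.1 and 39.6 without LPS. In WT it had 12.8 and 18.2 FPKM with LPS, against 19.0 and 33.5 without, and it fell by 0.69 (SE 0.13, limma adjusted p = 0.015). Cox7a2 rose by 0.48 (SE 0.13, limma adjusted p = 0.0399) and Sdhb fell by 0.52 (SE 0.14, limma adjusted p = 0.0372).

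All 11 complex IV subunits had a positive LPS difference, from 0.04 for Cox8a to 0.48 for Cox7a2, and all 4 complex II subunits a negative one, from -0.02 for Sdhc to -0.52 for Sdhb. Only Cox7a2 and Sdhb among these passed the test. The extremes of the other complexes were Ndufb6 (0.35) and Ndufs7 in complex I, Uqcrfs1 (0.47) and Uqcr11 (-0.20) in complex III, and Atp5b and Atp5g1 (-0.28) in complex V, of which only Ndufs7 and Atp5b passed. The directions in complexes III, IV and V depend on how libraries are scaled. Quantile scaling moved the median LPS difference of all genes to -0.08 and that of members to -0.50, with 1 member higher and 28 lower, against 12.3% and 15.4% of all genes, and the complex IV median to -0.49, against 0.19 as deposited. The medians of complexes I and II stayed negative, at -0.56 and -0.72, against -0.14 and -0.22 as deposited. As this scaling lowered the members as a whole, it could not test a direction that was already negative. Of the 4 LPS calls 0 stood whichever library was left out, and the counts were then 0 to 1 higher and 0 to 2 lower. Of all genes 5.06% to 14% were then higher and 2.62% to 9.23% lower. Mast cell marker sums were 207 to 751 FPKM in the LPS libraries, against 158 to 392 without LPS, with 5 of 6 markers higher. B cell marker sums were 207 to 352 FPKM, against 161 to 250 without LPS, with 3 of 5 markers higher. The part of both in the LPS differences was not tested.

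The LPS difference depended on nicotine for 9 members, by limma's test of the interaction, the LPS difference with nicotine minus that without. The interaction was positive for 4 and negative for 5, or 4.3% and 5.38%, against 12.8% and 17.3% of all genes tested. Of the 9, 6 were assembly factors and 3 accessory subunits of complex I. In single pairs of libraries, which allow no test, 0 of 82 members in KO and 1 of 82 in WT differed by at least 1.5-fold between nicotine with LPS and nicotine alone. Between LPS and vehicle 7 were higher and 6 lower of 87 in KO, and 15 higher and 10 lower of 88 in WT. Over all genes that reached 5 FPKM in a library of the pair, 16.7% in KO and 14% in WT were higher and 12.5% and 11.7% lower with nicotine, and 34.7% and 36.3% were higher and 19.7% and 24.2% lower without it.

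Cox17 delivers copper to complex IV. With nicotine, its LPS libraries had 176 FPKM in KO and 134 in WT, against 146 and 108 without LPS. Without nicotine they had 333 in KO and 321 in WT, against 115 and 83.6. The rise with LPS was thus large in the absence of nicotine and small in its presence, in both genotypes (interaction -1.44, SE 0.21, limma adjusted p = 0.00694). Cox18, which inserts the Cox2 tail into the membrane, did the same, with 3.66 and 3.71 FPKM in KO and WT after nicotine and LPS, against 3.23 and 3.18 after nicotine. After LPS alone it had 8.69 and 8.46 FPKM in KO and WT, against 2.20 and 1.45 with vehicle (interaction -1.62, SE 0.23, limma adjusted p = 0.00672). Cox15 had 4.17 and 3.26 FPKM in KO and WT after nicotine and LPS, against 3.94 and 3.33 after nicotine, and 12.4 and 11.1 after LPS, against 6.82 and 5.23 with vehicle (interaction -0.85, SE 0.19, limma adjusted p = 0.0216).

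The other 2 with a negative interaction were complex I accessory subunits. Ndufs4, which stabilises the NADH-binding arm, had 19.3 and 11.7 FPKM in KO and WT after nicotine and LPS, against 19.6 and 15.4 after nicotine, and 35.0 and 31.0 after LPS, against 21.1 and 19.1 with vehicle (interaction -0.88, SE 0.24, limma adjusted p = 0.0364). Ndufab1, also the acyl carrier protein of mitochondrial fatty acid synthesis, had 17.4 and 12.2 FPKM in KO and WT after nicotine and LPS, against 26.1 and 19.0 after nicotine, and 29.6 and 29.4 after LPS, against 28.7 and 21.3 with vehicle (interaction -0.83, SE 0.23, limma adjusted p = 0.038).

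The 4 with a positive interaction were lower after LPS alone and not, or less so, after nicotine and LPS. Cox7a2l had 212 and 296 FPKM in KO and WT after nicotine and LPS, against 192 and 249 after nicotine, and 106 and 93.6 after LPS, against 161 and 200.4 with vehicle (interaction 1.03, SE 0.26, limma adjusted p = 0.0287). Atp5sl had 10.7 and 10.1 FPKM in KO and WT after nicotine and LPS, against 13.9 and 10.1 after nicotine, and 3.24 and 2.64 after LPS, against 9.996 and 10.6 with vehicle (interaction 1.34, SE 0.23, limma adjusted p = 0.0101). Ndufb11, a membrane subunit of complex I, had 55.1 and 67.3 FPKM in KO and WT after nicotine and LPS, against 55.1 and 59.9 after nicotine, and 38.8 and 35.5 after LPS, against 59.5 and 69.0 with vehicle (interaction 0.86, SE 0.21, limma adjusted p = 0.0261). Ndufaf7, a methyltransferase of complex I assembly, had another pattern: vehicle alone stood apart. It had 1.88 and 2.10 FPKM in KO and WT after nicotine and LPS, against 1.39 and 1.70 after nicotine, and 0.595 and 0.591 after LPS, against 4.77 and 6.88 with vehicle (interaction 2.32, SE 0.24, limma adjusted p = 0.00402).

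**Figure D4:**
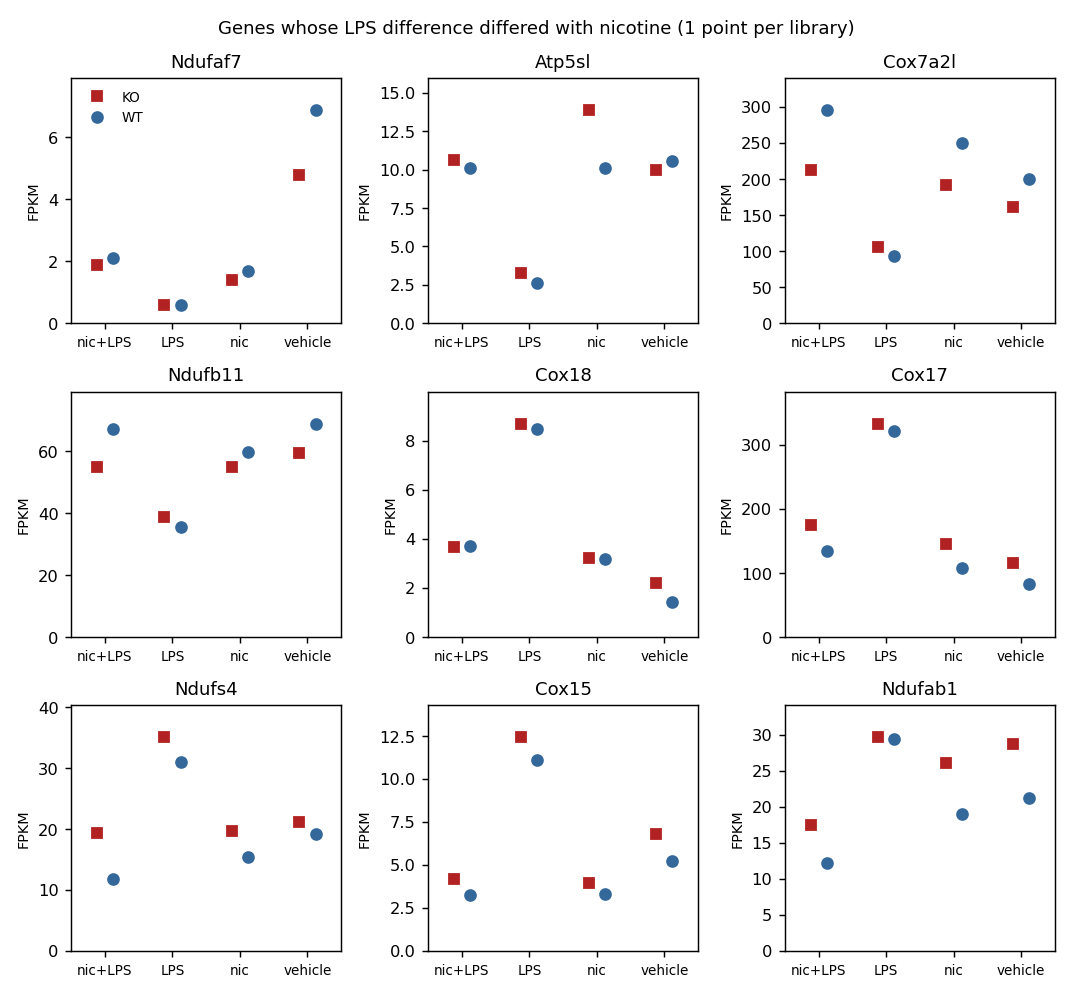
FPKM in each of the 8 libraries for the 9 genes whose LPS difference depended on nicotine, KO as red squares and WT as blue circles, 1 point per library. In Cox17, Cox18 and Cox15 the 2 LPS libraries without nicotine stand above all others, in Cox7a2l, Atp5sl and Ndufb11 they stand below all others, and in Ndufaf7 the 2 vehicle libraries stand highest.

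Cox17, Cox18 and Ndufaf7 kept their interaction whichever library was left out. The counts of 4 positive and 5 negative then ranged from 1 to 7 and from 2 to 9 and moved by over 1.5 times without each of the 8 libraries, without WT LPS in the negative count alone, which was then 3. The shares of all genes moved too, from 4.75% to 15.6% positive and from 5.62% to 19.9% negative. Both shares were lowest without WT nicotine and LPS and highest without KO LPS. Quantile scaling gave 33 positive and 2 negative interactions among members, against 15% and 12.1% of all genes, with a median of 0.49 for members and -0.01 for all genes, against -0.08 and -0.11 as deposited, and Cox17 was then not called (-0.62). Mast cell marker sums were 572 and 751 FPKM in KO and WT after nicotine and LPS, against 299 and 392 after nicotine, and 207 and 282 after LPS, against 158 and 208 with vehicle, and 3 of 6 markers had a positive interaction. So did 2 of 5 B cell markers, whose sums were 352 and 293 FPKM in KO and WT after nicotine and LPS, against 161 and 219 after nicotine, and 269 and 207 after LPS, against 242 and 250 with vehicle. Of the T and NK cell markers 2 of 5 did as well, with sums of 48.1 and 36.1 FPKM in KO and WT after nicotine and LPS, against 25 and 23.4 after nicotine, and 22 and 13.1 after LPS, against 25 and 19.6 with vehicle. The part of these cells in the interactions was not tested.

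KO libraries had more of nearly every member than WT libraries, by a small amount. The median KO minus WT difference was 0.32 (log2) over the 93 members, against -0.01 over all genes tested, and 88 of 93 were positive. FPKM was higher in KO in 4 of 4 pairs of libraries matched for treatment for 69 members, 74.2%, against 18% of all genes, and lower in 4 of 4 for 0 members, against 17.5%. All 4 KO libraries lay above all 4 WT libraries for 17 members and below them for 0, against 1.57% and 0.976% of all genes. No single member passed limma's test over all genes: 0 of 93 were called, against 0.689% of all genes higher and 0.412% lower, and 39 members, 41.9%, had an unadjusted p under 0.05, against 12.4% of all genes. The smallest adjusted p was 0.106, for Ndufb3.

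The shift ran through all 5 complexes, and KO was higher in 4 of 4 pairs for 28 of 36 complex I, 4 of 4 complex II, 6 of 8 complex III, 10 of 11 complex IV and 14 of 15 complex V subunits. Median differences were 0.33 for complex I, 0.39 for II, 0.24 for III, 0.37 for IV and 0.33 for V subunits, and 0.16 for the 18 assembly factors. In every treatment and every complex the median KO over WT ratio was above 0 on the log2 scale, and over all members it was 0.27 after nicotine and LPS, 0.22 after LPS, 0.33 after nicotine and 0.33 with vehicle. Quantile scaling left the members' median at 0.24. The 514 other genes inside the members' middle ranges of transcript length and mean FPKM had a median of 0.08.

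Atp5e, the epsilon subunit of ATP synthase, had 290 FPKM in KO against 212 in WT after nicotine and LPS, 281 against 190.3 after LPS, 272 against 194 after nicotine, and 270.3 against 174 with vehicle. Its groups did not overlap, and the difference was 0.53 (SE 0.12, limma adjusted p = 0.114). Cox5a, a complex IV subunit, had 170.2 FPKM in KO against 126 in WT after nicotine and LPS, 187 against 133 after LPS, 160 against 118 after nicotine, and 162 against 84.1 with vehicle, also with no overlap (0.57, SE 0.16, limma adjusted p = 0.19). Ndufb3 had the largest difference (0.68, SE 0.14), with overlapping groups. The 5 that were not higher in KO were Ndufa6, Ndufb11, Ndufaf7, Cox10 and Cox7a2l, with differences of -0.08 to -0.24, and Uqcrh and Cox4i1 had differences of 0.00 and 0.01.

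**Figure D5:**
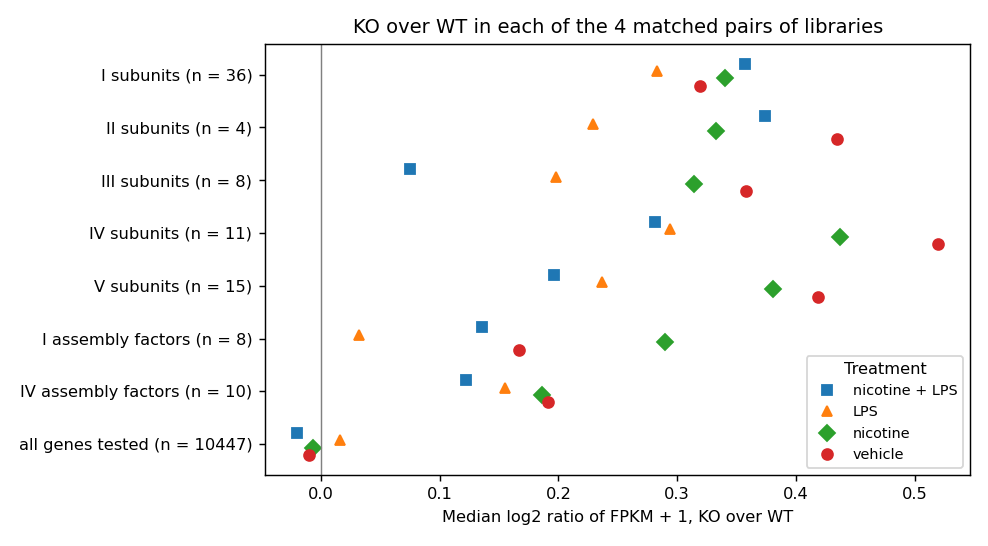
Median log2 ratio of FPKM + 1, KO over WT, in each of the 4 pairs of libraries matched for treatment, by complex and class and for all genes tested. Symbols are treatments. The medians of every complex lie above 0 in all 4 pairs, and those of all genes lie near 0.

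With the 4 treatments as a block, which compares KO with WT within each treatment, limma called 12 members higher in KO and 0 lower, against 4.76% and 2.88% of all genes. The block also takes the dependence of the LPS difference on nicotine out of the spread. They were Ndufb3, Ndufs5, Ndufb8, Ndufv3, Ndufa3, Ndufc1, Sdhc, Uqcr11, Cox7b, Cox7a2, Cox5a and Atp5e, with differences of 0.41 to 0.68 and adjusted p values of 0.0197 to 0.0484. The KO libraries also had neutrophil marker sums of 1.92 to 11.6 FPKM, against 0.109 to 5.55 in WT, with 1 marker tested and 0 called. Macrophage marker sums were 20500 to 30900 FPKM, against 26500 to 34900, with 1 of 10 markers lower in KO and 0 higher. Mast cell marker sums were 158 to 572 FPKM, against 208 to 751, with 0 of 6 tested markers called. T and NK cell marker sums were 22 to 48.1 FPKM, against 13.1 to 36.1. As ranges all these sums overlapped between the genotypes. Within each treatment, however, KO had the higher neutrophil and T and NK cell sum and the lower macrophage and mast cell sum. B cell and mesothelial and fibroblast sums went both ways. The part of these cells in the genotype result was not tested.

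Neither the nicotine nor the LPS difference was shown to depend on genotype. By limma's interaction tests 0 members were called for genotype by nicotine and 0 for LPS by genotype, and 0 of all genes (0%) in each. At an unadjusted p under 0.05 the counts were 0 of 93 members in both, and 64 and 112 of all genes. The median nicotine ratio over members was -0.24 in KO and -0.27 in WT under LPS, and -0.12 in KO and -0.15 in WT without it. In single pairs under LPS, 18 of 86 members in KO and 20 of 85 in WT were lower with nicotine by at least 1.5-fold, against 30.1% and 30% of all genes, and 2 and 5 were higher, against 24.7% and 28.5%. Without LPS, 10 of 85 in KO and 12 of 86 in WT were lower, against 23.3% and 23.2% of all genes, and 1 and 1 were higher, against 31.4% and 32.8%. With 1 library per group these tests had 3 residual degrees of freedom and do not show that the genotypes act alike.

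Other genes of the same machinery gave the counts that follow. Of all genes tested, 24.1% rose and 22.2% fell with nicotine and 15.8% rose and 11.3% fell with LPS. Of 15 electron carriers and other parts outside the symbol rule, 5 fell and 2 rose with nicotine. Among them the uncoupling protein Ucp2 fell by 1.21 (limma adjusted p = 0.0186) and the phosphate carrier Slc25a3 rose by 0.70 (limma adjusted p = 0.00534). Cytochrome c, Cycs, rose with LPS by 1.48 (limma adjusted p = 0.027), with an interaction of -1.68 (limma adjusted p = 0.0074). Etfdh, which passes electrons from fatty acid oxidation to ubiquinone, fell with LPS by 0.66 (limma adjusted p = 0.0172). Cycs had 30.2 and 26.5 FPKM in KO and WT after nicotine and LPS, against 18.6 and 16.9 after nicotine, and 57.0 and 47.7 after LPS, against 12.6 and 7.29 with vehicle.

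Of 27 assembly factors with other symbols 9 fell and 2 rose with nicotine. Sco2, a copper chaperone of complex IV, rose by 2.02 (limma adjusted p = 0.000651) and Sdhaf4, a complex II assembly factor, fell by 1.64 (limma adjusted p = 0.00485). With LPS 0 of the 27 rose and 3 fell, the complex I assembly factor Tmem126b most, by 1.25 (limma adjusted p = 0.017). Sco2 acts beside Sco1, and Sco1 had an interaction of -1.92 (limma adjusted p = 0.0121). Surf1, another complex IV assembly factor, had an interaction of 1.24 (limma adjusted p = 0.00894). Of 77 mitochondrial ribosomal protein genes 33 fell and 3 rose with nicotine, with a median of -0.37, and of 19 genes of the citric acid cycle and pyruvate dehydrogenase 6 fell and 2 rose, while 4 of these 19 rose and 0 fell with LPS. The widest nicotine differences were 1.75 for Mrps6 and -1.45 for Mrps10 among the ribosomal proteins, and 1.43 for Pdhb of pyruvate dehydrogenase and -1.39 for Idh3a of isocitrate dehydrogenase, with limma adjusted p values of 0.000418 to 0.005.

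Of 19 regulators of mitochondrial gene expression 8 rose and 3 fell with nicotine, from 1.23 for Pprc1 to -1.11 for Tfb1m. Among those that rose were Gabpa (0.79) and Gabpb1 (1.07), both parts of GABP, and Yy1 (0.94), with limma adjusted p values of 0.00173 to 0.00303. Nrf1 did not pass (0.08, limma adjusted p = 0.789). Of 22 mitochondrial stress and import genes 9 rose and 1 fell, with the chaperone Hspa9 higher by 2.64 (limma adjusted p = 0.00041), and of 15 amino acid stress response genes 14 rose and 0 fell, with a median of 2.86 and the largest rise, 4.87, in Trib3. Of 11 genes of the itaconate, nitric oxide and glycolytic switch 2 rose and 1 fell with nicotine, and 3 rose and 0 fell with LPS. For KO minus WT 0 genes of these lists were called. The median difference was 0.505 for this switch and 0.29 for the electron carriers and other parts, against 0.32 for members. It was 0.15 for the citric acid cycle list, 0.14 for ribosomal proteins, 0.09 for stress and import and 0.04 for the assembly factors. It was negative for the regulators (-0.06) and the amino acid stress response (-0.26).

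Some values can be shared with other genes. Near-identical transcripts of another gene, at least 95% identical over at least 200 bases, exist for 31 of the 93 genes, and for 20 of them at least 1 such copy is a pseudogene, such as for Cox7a2l, Ndufab1 and Ndufb3. The position of the copies was not checked, so genes that overlap the same locus can be among them. Exons of 36 overlap another gene, and the library kit does not mark strand, so reads of Ndufaf3 and Impdh2, of Ndufb11 and Rbm10 and of Cox15 and its neighbours Cutc and Entpd7 on the opposite strands cannot be told apart. Cox17 shares exons with the same-strand gene Gm21987.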

How the data were processed

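Poly(A) RNA of 8 libraries was sequenced from kits that do not mark strand. The deposited values are FPKM per gene, made by the authors with CASAVA 1.8, HISAT2, Cufflinks and Cuffdiff on mm10, per the submitters' processing notes, and their annotation and between-library scaling were not given in the sources used here. Read depth could not be recovered from FPKM, so no counting interval is given. The 10447 genes whose mean reached 1 FPKM were tested with limma 3.58.1 (R 4.3.3) on log2(FPKM + 1), which understates changes of low genes, in a model of LPS, nicotine and genotype with 4 residual degrees of freedom, and with 1 interaction term for each interaction. Adjustment was by Benjamini-Hochberg over all genes tested, at 0.05. The analysis was checked on simulated data. Single pairs used genes that reached 5 FPKM in 1 of the libraries and a 1.5-fold limit, with no test. Alternatives changed the pseudocount, filter, scaling, model and library set. Genes and lists were chosen with earlier results of these data known. The text names the 6 largest rises and falls past the threshold per effect, the extremes and the most abundant gene of each complex, up to 6 genes per interaction, tissue-specific forms, and genes near the FPKM minimum. From the gene lists it names the largest rise or fall with nicotine or LPS where the list is described. Other genes named were chosen after their values were seen. They include the further interaction genes, the complex subunits with their roles, and Sco1, Surf1, Cycs, Cyc1, Ucp2 and the GABP genes.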

Additional observations from a re-analysis of the deposited data

Results flagged for a closer look

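In 9 genes the LPS difference with nicotine differed from that without nicotine by the interaction test (limma adjusted p under 0.05, log2 difference of differences, 8 libraries). It was positive for Ndufaf7 (2.32), Atp5sl (1.34), Cox7a2l (1.03) and Ndufb11 (0.86). It was negative for Cox18 (-1.62), Cox17 (-1.44), Ndufs4 (-0.88), Cox15 (-0.85) and Ndufab1 (-0.83). With 1 library per group the spread comes from the KO and WT libraries of each treatment. Leaving out each library in turn kept the call of Cox17, Cox18 and Ndufaf7, and each of the other 6 was lost without at least 1 library.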

How the results depend on the processing

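No paired analysis by replicate number was possible because each group has 1 library, and pairs of libraries matched for the other factors served as the block instead. For LPS, where 2 members were higher and 2 lower, the higher count was 1 without a filter, 1 with quantile scaling, 0 with LPS as the only term and 0 when the matched pairs formed a block, and the lower count was 28 with quantile scaling, 0 with LPS alone and 1 with the block. Of all genes 3.39% were higher and 1.59% lower with LPS as the only term, and 8.45% and 5.35% with the block. The shares were 7.19% and 4.46% without a filter and 12.3% and 15.4% with quantile scaling. Quantile scaling reversed the LPS differences of Atp5b (-0.16) and Cox7a2 (-0.12). For nicotine, with 4 higher and 22 lower, the higher count was 2 without a filter, 1 with quantile scaling, 1 with nicotine as the only term and 1 with the block, and the lower count 10 with nicotine alone. With nicotine as the only term 15% of all genes were higher and 11.8% lower, and with the block 21.3% and 18.7%. Without a filter 16% were higher and 13.3% lower, and with quantile scaling 23.6% and 22.2%. For genotype the block gave 12 higher, and 4.76% of all genes were then higher. For the interaction, with 4 positive and 5 negative, the negative count was 3 without a filter and 2 with quantile scaling, which gave 33 positive. Of all genes 7.53% were positive and 8.38% negative without a filter, and 15% and 12.1% with quantile scaling.

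In single pairs for nicotine under LPS a 2-fold limit left 3 members of 20 in KO and 8 of 25 in WT, and without LPS 2 of 11 in KO and 5 of 13 in WT, and a minimum of 20 FPKM left 7 in KO. At 2-fold 14% of all genes in KO and 17.1% in WT were higher under LPS, and 18.2% and 19.5% lower. Without LPS 18% and 19.6% were higher, and 13% and 12.7% lower. With the 20 FPKM minimum 41.4% of all genes in KO were higher without LPS and 17% lower. For LPS with nicotine the count of 0 in KO was 1 with a pseudocount of 0.1 and 3 with median centring, and that of 1 in WT was 0 with a 2-fold limit and 0 with a minimum of 20 FPKM. Of all genes in KO 17.6% were higher and 14% lower with that pseudocount, and 15.8% and 13.5% with median centring. In WT 7.13% were higher and 3.98% lower at 2-fold, and 17.5% and 11.1% with the 20 FPKM minimum. For LPS without nicotine a 2-fold limit left 3 of 13 in KO and 7 of 25 in WT. Of all genes 21.7% in KO and 23.4% in WT were then higher, and 11.8% and 15.8% lower. Leaving out each library in turn gave 0 to 1 higher and 0 to 2 lower for LPS, 0 to 3 and 11 to 19 for nicotine, 0 for genotype and for both interactions with genotype, and 1 to 7 and 2 to 9 for LPS by nicotine. Of all genes 5.06% to 14% were then higher and 2.62% to 9.23% lower for LPS. The shares were 18.3% to 22.6% and 16.1% to 19.7% for nicotine, and 4.75% to 15.6% and 5.62% to 19.9% for LPS by nicotine. They were 0.0574% to 0.957% and 0.0479% to 0.68% for genotype, and 0% for both interactions with genotype. The cause was not tested. FPKM without counts or replicates limits all p-values to the spread between these 8 libraries.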
